A study of Mus musculus with 8 samples.

Results

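Butyrate can be carried across the membrane of an epithelial cell, sensed at its surface or activated to an acyl-CoA. Followed here were 10 mouse genes tied to transport, sensing or activation. They were the transporters Slc16a1, Slc16a3, Slc5a8 and Slc5a12, the transporter chaperone Bsg, the efflux pump Abcg2, the receptors Ffar2 and Ffar3, and the acyl-CoA synthetases Acss2 and Acsm3. The measurement was acetylation of histone H3 at the lysine marked H3K9ac, by chromatin immunoprecipitation and sequencing. Members were all regions of the deposited table whose nearest-gene name is 1 of these 10. There were 8 such regions of 11251, and they belonged to 7 genes, since Abcg2 held 2 of them. No region carried the name of Ffar2, Ffar3 or Acss2.

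Wild-type C57Bl/6 mice were the source, and epithelial cells were isolated from their terminal ileum. The butyrate group had been given 150 mM butyrate for 7 days, and the vehicle group received vehicle. Each group had 3 H3K9ac libraries, called S4 to S6 for butyrate and S1 to S3 for vehicle. The labels do not say whether each library came from its own mouse or from pooled mice, and p-values here reflect only how libraries of a group vary, which may be technical variation. The 2 inputs, 1 per treatment, were not analysed here.

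Values are RPKM as the authors computed them, reads scaled for region length and library depth, and they can be compared between regions of different length. The libraries held 1255251 to 1828591 reads in regions. Their summed RPKM differed by at most 0.392%. How the authors set the library depth is not given in the sources used here. Whether the scaling removed a gain or loss of acetylation shared by all regions therefore cannot be told. All differences are read as relative to the other regions. All 11 epithelial marker genes listed for this check, among them Epcam, Vil1 and Cdx2, had a region within 5000 bp of a start, with a summed RPKM of 54.8 to 59.9 in butyrate and 58.6 to 62.2 in vehicle. Of the immune markers 3 of 14 had a region (Ptprc, Cd3d and Laptm5, summed RPKM 2.56 to 4.30 in butyrate and 2.61 to 3.00 in vehicle), and of the stromal, endothelial, muscle and glial markers 1 of 12 did (Vim, 0.656 to 1.03 in butyrate and 0.593 to 1.98 in vehicle). The part of other cells in the results was not tested. In bulk chromatin, a change in the share of a cell type and a change of acetylation within each cell cannot be told apart.

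Butyrate, which gut bacteria release from dietary fibre, is a short-chain fatty acid, a fuel of the gut epithelium and an inhibitor of histone deacetylases. It crosses membranes with protons through the SLC16 transporters MCT1 and MCT4, which rely on basigin (Bsg) to reach the surface, or with sodium through SLC5A8 and SLC5A12. Inside the cell it is coupled to coenzyme A and oxidised in mitochondria, or it reaches the nucleus. H3K9ac marks active promoters, where it typically lies around the start of the gene.

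RefSeq promoter windows (GRCm38.p6, the mm10 build of the table), each 300 bases long and mostly upstream of a start, were found for 8 of the 10 genes, 13 windows in all. They are shown for the genes whose acetylation or lack of a region is described below. Capitals mark GGGCGG or its reverse complement CCGCCC, the GC box bound by the Sp and Krüppel-like factor families, which 35.7% of the 32851 windows in RefSeq's table hold on either strand. All are written 5′ to 3′ on the strand of the gene.
Slc16a1, chr3:104638414-104638713, plus strand: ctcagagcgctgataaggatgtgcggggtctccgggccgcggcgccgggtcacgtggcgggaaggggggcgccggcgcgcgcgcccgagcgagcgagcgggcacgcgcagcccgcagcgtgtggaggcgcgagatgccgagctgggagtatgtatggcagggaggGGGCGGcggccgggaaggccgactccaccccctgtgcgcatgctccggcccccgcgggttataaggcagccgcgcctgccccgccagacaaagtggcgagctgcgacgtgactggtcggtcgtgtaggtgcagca
Slc16a3, chr11:120948817-120949116, plus strand: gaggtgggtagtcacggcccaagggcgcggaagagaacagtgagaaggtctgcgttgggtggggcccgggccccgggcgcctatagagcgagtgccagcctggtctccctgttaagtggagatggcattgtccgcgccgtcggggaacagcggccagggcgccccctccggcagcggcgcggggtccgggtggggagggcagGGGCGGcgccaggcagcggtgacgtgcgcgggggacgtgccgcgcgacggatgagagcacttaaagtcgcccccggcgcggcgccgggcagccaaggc
Slc5a8, chr10:88885742-88886041, plus strand: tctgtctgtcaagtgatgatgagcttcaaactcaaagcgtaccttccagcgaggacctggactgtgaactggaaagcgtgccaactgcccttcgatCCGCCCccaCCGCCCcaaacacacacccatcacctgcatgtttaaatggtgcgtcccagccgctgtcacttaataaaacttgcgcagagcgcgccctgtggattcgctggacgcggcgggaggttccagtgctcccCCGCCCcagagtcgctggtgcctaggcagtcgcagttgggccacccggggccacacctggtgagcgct
Abcg2, chr6:58640296-58640595, plus strand: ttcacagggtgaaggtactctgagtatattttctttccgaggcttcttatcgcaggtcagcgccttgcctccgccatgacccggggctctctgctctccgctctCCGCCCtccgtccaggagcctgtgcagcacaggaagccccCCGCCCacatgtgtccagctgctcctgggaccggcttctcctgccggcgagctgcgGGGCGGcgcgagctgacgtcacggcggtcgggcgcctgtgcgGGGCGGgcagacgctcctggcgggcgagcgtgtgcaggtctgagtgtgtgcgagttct
Acsm3, chr7:119760673-119760972, plus strand: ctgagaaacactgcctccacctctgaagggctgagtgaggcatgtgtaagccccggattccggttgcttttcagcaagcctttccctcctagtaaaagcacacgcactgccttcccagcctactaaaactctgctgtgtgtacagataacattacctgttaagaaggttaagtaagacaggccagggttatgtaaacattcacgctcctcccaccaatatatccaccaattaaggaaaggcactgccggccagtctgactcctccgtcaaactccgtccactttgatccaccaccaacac
Acss2, chr2:155517793-155518092, plus strand: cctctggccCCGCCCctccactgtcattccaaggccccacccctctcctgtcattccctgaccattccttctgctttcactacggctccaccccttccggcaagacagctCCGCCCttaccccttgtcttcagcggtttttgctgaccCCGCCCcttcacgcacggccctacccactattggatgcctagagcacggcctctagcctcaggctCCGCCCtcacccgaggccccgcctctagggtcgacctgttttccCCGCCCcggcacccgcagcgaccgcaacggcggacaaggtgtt

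The windows differed in CpG content, given as the number of CpG dinucleotides over that expected from the C and G content. Slc16a1 (1.06, with 1 GC box) and Slc16a3 (0.933, with 1) were the richest of the 13. The Abcg2 window shown had 0.832 and 4 GC boxes, Acss2 0.741 and 5, and Slc5a8 0.733 and 3, while Acsm3 had 0.396 and none. The Abcg2 windows not shown had 0.580 with 2 GC boxes, over a region, and 0.160 with none, over no region. The Ffar3 window had 0.212, and the 4 Ffar2 windows had 0.138 to 0.469. Over all windows the median was 0.384. It was 0.812 in the 9290 windows (28.3%) that overlapped an H3K9ac region and 0.264 in those that overlapped none. Of the 13 member windows 5 overlapped a region, at Slc16a1, Slc16a3, Acsm3 and 2 of the 3 Abcg2 starts. Acss2 was therefore a CpG-rich start without a region, whereas the Ffar3 window and 3 of the 4 Ffar2 windows had a CpG content below the median of windows without one. A GC box is a string of letters here and not a measured binding site.

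An annotated start of the gene lay within 6 of the 8 regions. The Slc16a1 region (chromosome 3, 104637770 to 104640611, mm10 coordinates as the file gives them) covered the start of the gene, was 2841 bp long and is annotated by its centre as intron 1. The Slc16a3 region (chromosome 11, 120948516 to 120949557) covered 4 annotated starts of the gene in GENCODE M21, and so did the Bsg region (chromosome 10, 79703747 to 79706680), the Slc5a12 region (chromosome 2, 110596682 to 110600472) and the Acsm3 region (chromosome 7, 119760562 to 119761443). The Slc5a8 region (chromosome 10, 88886092 to 88887676) began 100 bp downstream of the gene's start and is annotated as intron 1, and the promoter printed above did not overlap it. Of the Abcg2 regions, the first (chromosome 6, 58596028 to 58596528) is annotated as promoter. It lay just downstream of a GENCODE start of the gene at 58595975 and ended 144 bp before a RefSeq start. The other (chromosome 6, 58640025 to 58642654) is annotated as intron 1, at 44668 bp from that start, but it covered 6 further annotated starts of Abcg2, including the one printed above. No other gene of GENCODE M21 started within any of the 8 regions.

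**Figure D1:**
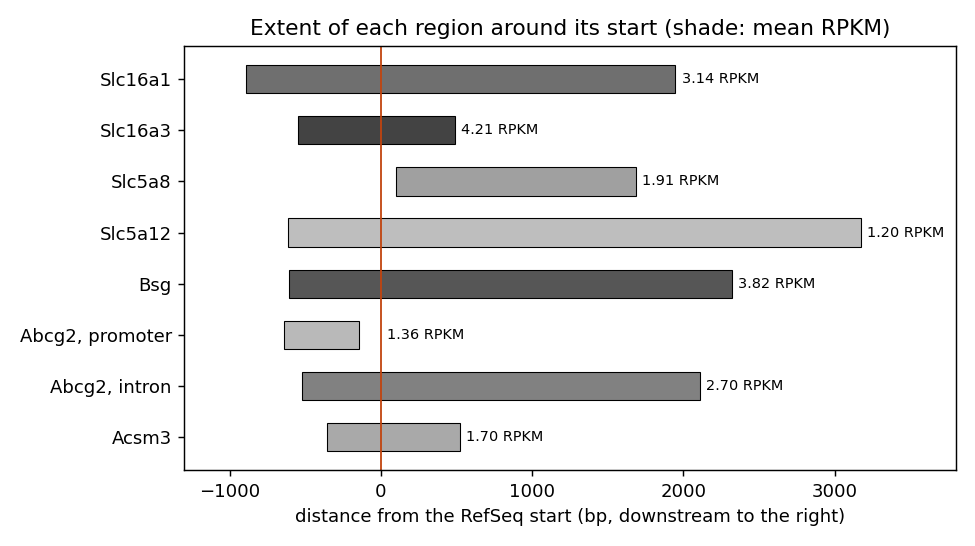
Extent of each region around its start. Each bar is 1 region, and its shade and number give the mean RPKM over the 6 libraries. The horizontal axis, labelled as distance from the RefSeq start, is in bp with downstream to the right. The vertical line is the start that the authors' deposited distance refers to. For Bsg and Slc5a12 no RefSeq window was found to compare it with. The Slc5a8 bar begins 100 bp after the start, and the Abcg2 promoter bar ends 144 bp before it; the Abcg2 intron bar is drawn around the start inside it.

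H3K9ac density at these genes followed the order Slc16a3 (4.21 RPKM as a mean of the 6 libraries), Bsg (3.82), Slc16a1 (3.14), the Abcg2 intron region (2.70), Slc5a8 (1.91), Acsm3 (1.70), the Abcg2 promoter region (1.36) and Slc5a12 (1.20). The proton-coupled transporters and their chaperone were thus above or near the median of all 11251 regions (3.09 RPKM), at the 77.1st percentile for Slc16a3, the 68.8th for Bsg and the 51.5th for Slc16a1. The sodium-coupled transporters were below it, at the 24.1st percentile for Slc5a8 and the 11.9th for Slc5a12, and Acsm3 was at the 20.7th. These ranks are of density and depend on region length. In mean reads per library the Slc5a12 region, 3790 bp long, held 95.3 and the shorter Slc16a3 region 92.3. Slc5a8 held fewer, 63.8, while Slc16a1 held 191.0 and Bsg 235.0. Bsg exceeded Slc16a1 in 6 of 6 libraries, and the Abcg2 intron region exceeded Slc5a8 in 6 of 6. Slc16a3 exceeded Bsg, Slc16a1 the Abcg2 intron region, and Slc5a8 Acsm3 in 5 of 6 each. The last neighbours could not be ordered: Acsm3 exceeded the Abcg2 promoter region in 3 of 6, and that region exceeded Slc5a12 in 3 of 6. The ranges over the 6 libraries overlapped in each pair of neighbours.

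The question of the comparison was whether H3K9ac at these genes differs between butyrate and vehicle mice. No member passed limma on log2(RPKM + 1), fitted over the 10529 regions with a mean of at least 1 RPKM, at a Benjamini-Hochberg adjusted p of 0.05. That test called 0% of all regions, and its smallest adjusted p was 0.486. All 8 member regions were among those tested, and their adjusted p ran from 0.703 to 0.969. At an unadjusted p under 0.05 it had 0 of the 8 members and 7.27% of all tested regions. The members' log2 fold changes were above 0 at 3 regions and below 0 at 5, with a median of -0.06, while 50.0% of all tested regions were above 0, with a median of 0.00. Groups did not overlap at 1 of the 8, Slc5a8, against 13.0% of all tested regions 6.11% with butyrate higher and 6.85% with butyrate lower. By voom, the limma method for counts, run on recovered reads, 0 of the 8 passed, against 0.142% of the 11251 regions. At an unadjusted voom p under 0.05 were 2 of the 8, Slc5a8 and Slc5a12, against 9.49% of all regions. The authors' deposited table called 0 of the 8 at its FDR of 0.1, against 0.249% of all regions.

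**Figure D2:**
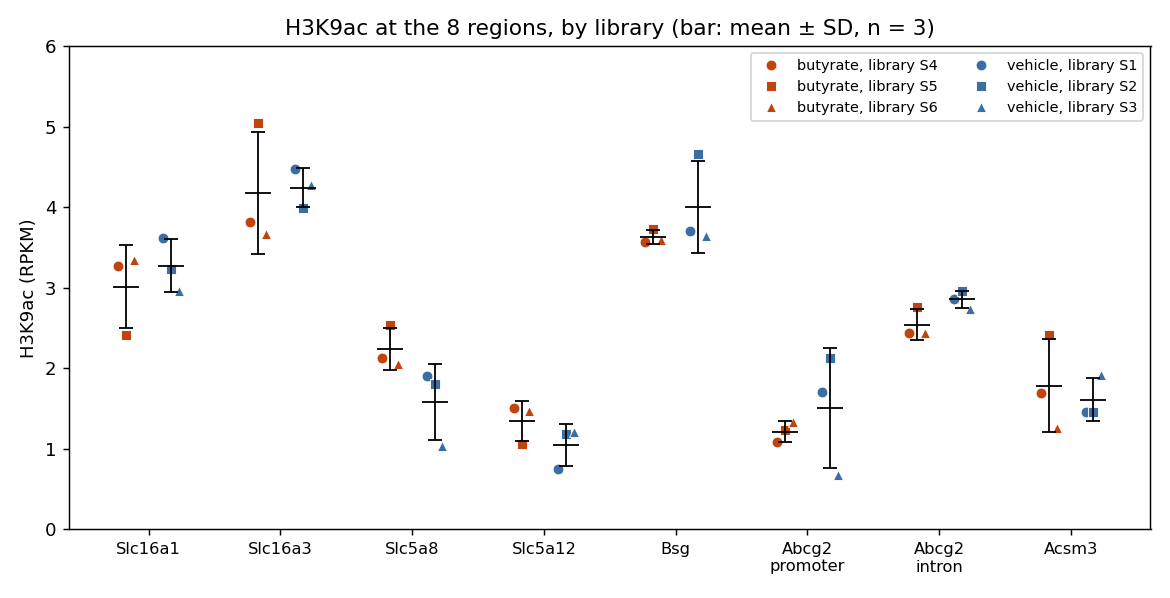
H3K9ac in RPKM at each region, with 1 point per library (butyrate S4 to S6 left, vehicle S1 to S3 right) and the mean ± SD (n = 3 each) as a bar. The Slc5a8 butyrate libraries, at 2.05 to 2.54 RPKM, lie above all its vehicle libraries, at 1.04 to 1.91; at the other 7 regions the groups overlap.

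Among the sodium-coupled transporters, Slc5a8 encodes a high-affinity carrier of short-chain fatty acids at the apical membrane. Its region had 2.13, 2.54 and 2.05 RPKM in butyrate libraries S4 to S6, against 1.91, 1.80 and 1.04 RPKM in vehicle libraries S1 to S3. All butyrate libraries were above all vehicle libraries, and vehicle library S3 stood lowest, on 34 reads. The means were 2.24 ± 0.26 RPKM in butyrate and 1.58 ± 0.48 in vehicle (SD, n = 3 each), a ratio of 1.41. The log2 fold change on the log2(RPKM + 1) scale was 0.34 ± 0.16 (SE), with a 95% interval of -0.01 to 0.69 (limma p 0.0558, adjusted p 0.703). It was at the 97.5th percentile of the fold changes of all tested regions. That rank makes no allowance for read number, a mean of 63.8 per library here against a median of 97.7 over all regions. Without vehicle library S3 the log2 fold change was 0.18. Voom gave 0.51 ± 0.21 (unadjusted p 0.0151, adjusted p 0.383), and the authors' deposited table gave 0.49 (p 0.0299, FDR 0.471).

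Slc5a12 encodes the low-affinity relative of this carrier. Its region, the longest of the 8 at 3790 bp and the least dense, had 1.51, 1.06 and 1.47 RPKM in butyrate libraries S4 to S6, against 0.746, 1.18 and 1.21 RPKM in vehicle libraries S1 to S3. The groups overlapped, with butyrate library S5 below vehicle libraries S2 and S3. The means were 1.35 ± 0.25 RPKM in butyrate and 1.05 ± 0.26 in vehicle (SD, n = 3 each), and the log2 fold change was 0.20 with a 95% interval of -0.20 to 0.60 (limma adjusted p 0.827). Without vehicle library S1 it was 0.09. Voom gave 0.44 ± 0.17 (unadjusted p 0.0118, adjusted p 0.362). The authors' deposited table gave 0.38 with an FDR of 0.583.

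The proton-coupled transporter Slc16a1 encodes MCT1, a carrier of butyrate and lactate in the gut epithelium. It had 3.27, 2.42 and 3.35 RPKM in butyrate libraries S4 to S6, against 3.61, 3.23 and 2.96 RPKM in vehicle libraries S1 to S3. The groups overlapped and butyrate library S5 was the lowest. Its log2 fold change was -0.10 with a 95% interval of -0.36 to 0.17 (limma adjusted p 0.872). Without S5 it was 0.015, so the sign rests on that library.

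Slc16a3 encodes MCT4, best known as a lactate exporter of glycolytic cells. It had 3.81, 5.04 and 3.67 RPKM in butyrate libraries S4 to S6, against 4.47, 3.98 and 4.27 RPKM in vehicle libraries S1 to S3. Butyrate library S5 was the highest of all 6 here, while it was the lowest at Slc16a1, and the other 2 butyrate libraries were below all vehicle libraries. The means were 4.17 ± 0.76 RPKM in butyrate and 4.24 ± 0.24 in vehicle (SD, n = 3 each). The log2 fold change was -0.03 with a 95% interval of -0.27 to 0.21 (limma adjusted p 0.969), and its sign turned without any 1 of libraries S1, S4 and S6.

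Bsg, the chaperone that brings both proton-coupled transporters to the membrane, had 3.56, 3.73 and 3.59 RPKM in butyrate libraries S4 to S6, against 3.70, 4.66 and 3.64 RPKM in vehicle libraries S1 to S3. Vehicle library S2 stood above the other 5, which lay close together. The log2 fold change was -0.11 with a 95% interval of -0.33 to 0.12 (limma adjusted p 0.834), and without S2 it was -0.01.

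**Figure D3:**
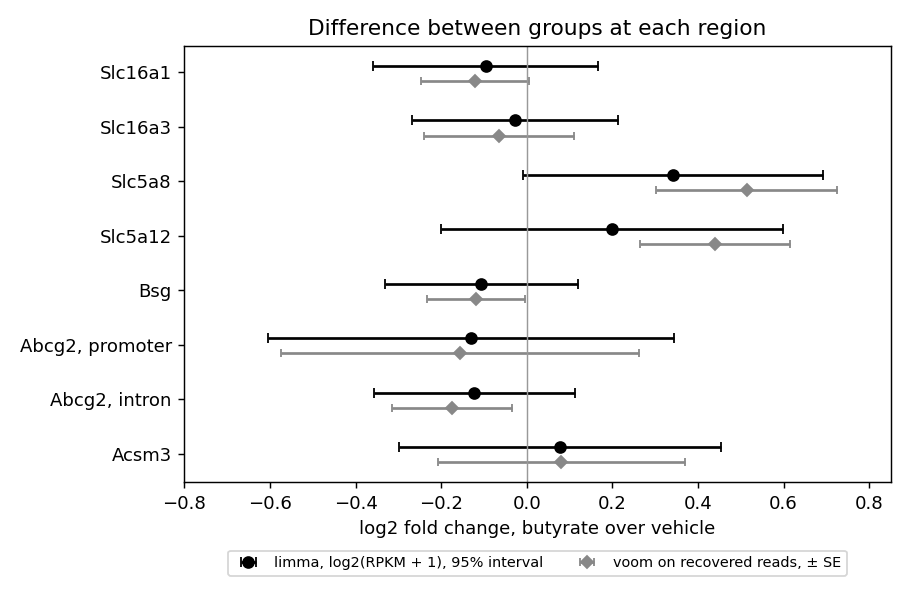
Log2 fold change of butyrate over vehicle at each region, by limma on log2(RPKM + 1) with its 95% interval (circles) and by voom on recovered reads with ± SE (diamonds). All 8 limma intervals include 0, that of Slc5a8 narrowly (-0.01 to 0.69).

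Abcg2 encodes an efflux pump of the apical membrane with many drugs and metabolites among its substrates. Its intron region had 2.43, 2.76 and 2.43 RPKM in butyrate libraries S4 to S6, against 2.86, 2.96 and 2.74 RPKM in vehicle libraries S1 to S3. The groups overlapped by 1 library, S5, which was barely above S3. The log2 fold change was -0.12 with a 95% interval of -0.36 to 0.11 (limma adjusted p 0.815). The promoter region rested on 7 to 22 reads per library. It had 1.08, 1.23 and 1.33 RPKM in butyrate libraries S4 to S6, against 1.71, 2.13 and 0.677 RPKM in vehicle libraries S1 to S3. The vehicle libraries included both the highest and the lowest of the 6, and the log2 fold change was -0.13 with a 95% interval of -0.61 to 0.34 (limma adjusted p 0.914). The vehicle libraries varied by 49.6% of their mean (coefficient of variation) and the butyrate libraries by 10.4%. Counting alone gives 26.4% at the mean read number. Without vehicle library S2 the log2 fold change was 0.054, and without vehicle library S3 it was -0.40 (unadjusted limma p 0.0472, adjusted p 0.705).

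Acsm3 encodes a mitochondrial acyl-CoA synthetase of short and medium-chain fatty acids. It had 1.69, 2.41 and 1.26 RPKM in butyrate libraries S4 to S6, against 1.45, 1.46 and 1.92 RPKM in vehicle libraries S1 to S3. The butyrate libraries spanned all vehicle libraries. The log2 fold change was 0.08 with a 95% interval of -0.30 to 0.45 (limma adjusted p 0.937), and without butyrate library S5 it was -0.079, so the sign rests on that library.

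Of the genes without a region, Ffar2 and Ffar3 encode G protein-coupled receptors of short-chain fatty acids, known in the gut from enteroendocrine and immune cells. On chromosome 7 the closest of their GENCODE starts was 72201 bp (Ffar2) and 99349 bp (Ffar3) from the nearest region of the table. Acss2 encodes the acetyl-CoA synthetase of the cytosol and nucleus, which makes acetyl-CoA for histone acetylation from acetate. The promoter window of Acss2 printed above was 43039 bp from the nearest region. The closest of the gene's 10 GENCODE transcript starts was 18536 bp from a region, which was named for Gss. A gene absent from the table had no region called near it, which gives no value of its H3K9ac and no comparison between the groups.

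The spread between libraries was unequal among the 8 regions. A chi-square of the recovered reads about their group means, per degree of freedom, is near 1 where counting alone makes the spread, and its median over all regions was 1.69. It was 4.58 at Slc5a12, 3.44 at Slc16a1, 2.88 at Slc5a8, 2.40 at Bsg and 2.09 at Acsm3. The Abcg2 promoter region had 1.93, Slc16a3 1.54 and the Abcg2 intron region 0.465. Slc5a8 and Slc5a12, the members with the largest fold changes, were thus among the highest by this measure. The measure pools both groups and, at an equal relative spread, rises with read number. As a share of the mean, the widest spread within a group was 49.6% at the Abcg2 promoter region (vehicle). Next were 32.5% at Acsm3 (butyrate) and 30.0% at Slc5a8 (vehicle). Mean reads per library were 14.3 at the Abcg2 promoter region, 31.2 at Acsm3, 63.8 at Slc5a8, 92.3 at Slc16a3, 95.3 at Slc5a12, 149.7 at the Abcg2 intron region, 191.0 at Slc16a1 and 235.0 at Bsg.

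**Figure D4:**
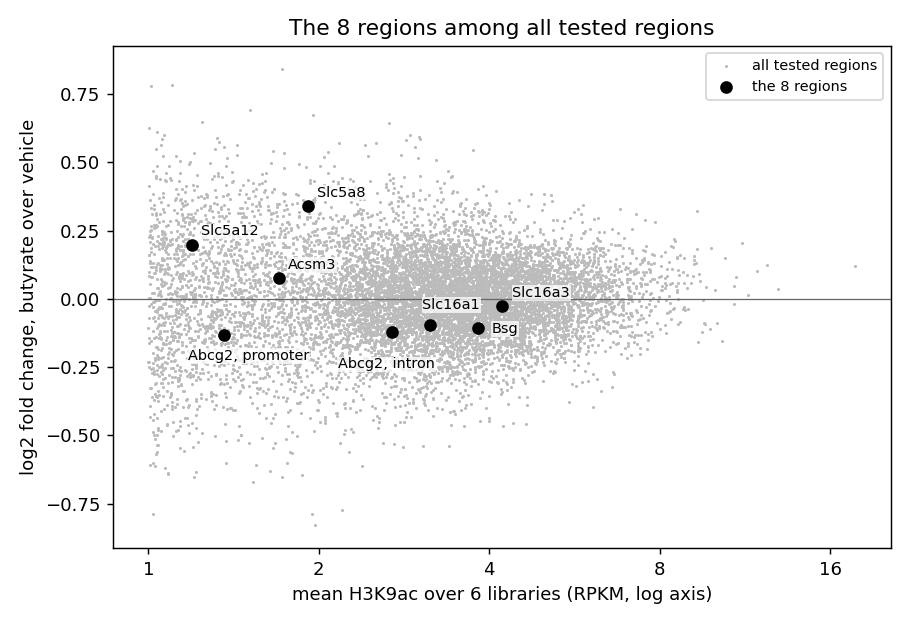
Log2 fold change of butyrate over vehicle against mean H3K9ac over 6 libraries (RPKM, log axis) for all 10529 tested regions (grey) and the 8 regions (black). Slc5a8, at 0.34, lies in the upper part of the cloud, and the 5 regions below 0 lie between -0.13 and -0.03.

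The 8 regions varied widely in base composition, which the choice of members did not use. The CpG ratio of the region was 0.834 at Slc16a1, 0.685 at Slc16a3 and 0.615 at the Abcg2 promoter region, above the median of all regions (0.588). It was below that median at Slc5a8 (0.512), the Abcg2 intron region (0.463), Bsg (0.389), Acsm3 (0.259) and Slc5a12 (0.192). Slc5a12 was also among the poorest in G and C of the whole table, with 38.5% at the 0.524th percentile, against a median of 52.2%. Across all 11251 regions the CpG ratio and H3K9ac density had a Spearman correlation of 0.596, a description over regions that share libraries. The median density was 1.74 RPKM in the 4243 regions with a CpG ratio under 0.5 and 3.61 RPKM in the others. Of the 4 members with a ratio under 0.5, Bsg at 3.82 RPKM and the Abcg2 intron region at 2.70 RPKM were above the median of such regions, and Acsm3 at 1.70 RPKM and Slc5a12 at 1.20 RPKM were below it. The fold changes of the 3545 tested CpG-poor regions had a median of -0.01 and those of the 6984 others of 0.00.

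**Figure D5:**
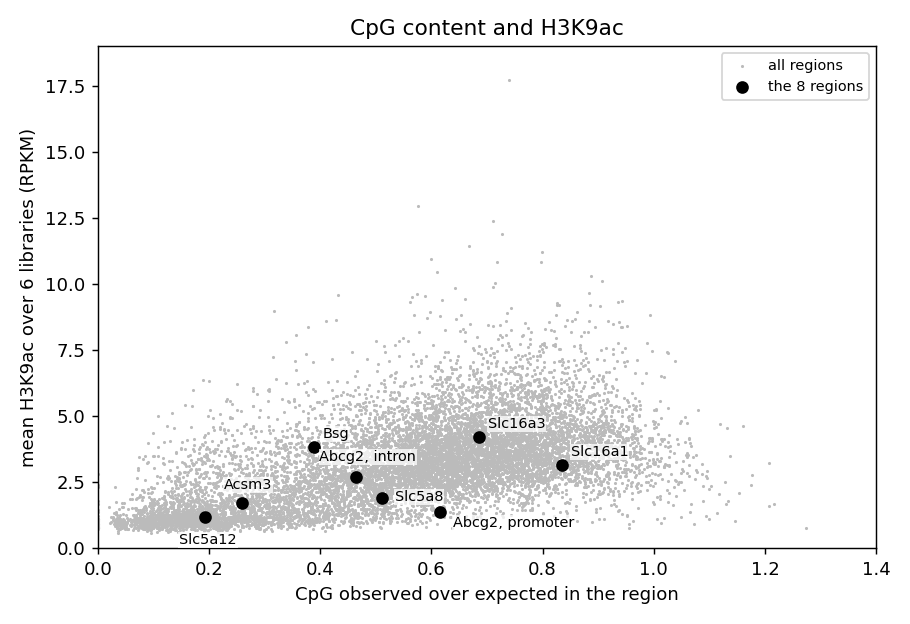
Mean H3K9ac over 6 libraries (RPKM) against the CpG observed over expected ratio of the region, for all 11251 regions (grey) and the 8 regions (black). Density is low at the left, where Slc5a12 (0.192) and Acsm3 (0.259) lie; Bsg (0.389) and the Abcg2 intron region (0.463) are higher.

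Other genes of related transport, signalling and fatty acid metabolism were read at 1 region per gene within 5000 bp of a start, in 6 lists of 77 genes. Not all of them handle butyrate. Under their own name 47 had such a region and 46 were tested. By limma 0 of the 46 passed, 17 were above 0 and 29 below, with a median log2 fold change of -0.04, against 50.0% above 0 and a median of 0.00 over all tested regions. At an unadjusted p under 0.05 were 3 of the 46, against 7.27% of all, and groups did not overlap at 9, against 13.0% of all. These counts describe the lists and were not tested.

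Of the other SLC16 transporters with the chaperone Emb, 7 of 13 genes had a region; 1 of the 6 tested was above 0 and 5 were below, with a median of -0.12. Slc16a5, a monocarboxylate transporter family member, had the smallest p, with 4.54 ± 0.21 RPKM in butyrate and 5.34 ± 0.22 in vehicle (SD, n = 3 each; log2 fold change -0.19 ± 0.08 SE; limma adjusted p 0.658) and no overlap. Slc16a12, the 1 above 0, had 2.98 ± 0.83 RPKM in butyrate and 2.71 ± 0.57 in vehicle. The ion exchangers that move protons, bicarbonate and chloride beside butyrate had a region at 9 of 10 genes, with 3 above 0 and 6 below (median -0.04). The anion exchanger Slc4a2 was at 0.11 ± 0.11 and the apical exchanger Slc26a6 at -0.12 ± 0.12 on the log2 scale (SE).

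Of the other fatty acid and metabolite receptors with their G proteins, 6 of 14 genes had a region, and none of the receptors Hcar1, Hcar2, Olfr78, Olfr558, Ffar1, Ffar4 and Gpr84 did. The 6 were G protein and arrestin genes, 3 above 0 and 3 below. Gnai2, an inhibitory G protein subunit, had 5.76 ± 0.37 RPKM in butyrate and 5.005 ± 0.555 in vehicle (SD, n = 3 each; log2 fold change 0.17; limma adjusted p 0.708), and Gnaq, a subunit that activates phospholipase C, was at -0.12. Groups did not overlap at either.

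The other acyl-CoA synthetases had a region at 9 of 15 genes, with 4 above 0 and 5 below (median -0.04). Acss3, a mitochondrial short-chain synthetase and relative of Acss2, had 1.99 ± 0.16 RPKM in butyrate and 1.54 ± 0.30 in vehicle (SD, n = 3 each; log2 fold change 0.24; limma adjusted p 0.737) without overlap, and Acsf3, a mitochondrial malonyl-CoA synthetase, was at -0.16. Enzymes of fatty acid oxidation and of ketone bodies had a region at 12 of 16 genes, 5 above 0 and 7 below (median -0.01). Etfdh, which passes electrons of fatty acid oxidation to the respiratory chain, was at 0.17 and Hadha, a subunit of the trifunctional protein, at -0.10. The ABC pumps other than Abcg2 had a region at 4 of 9 genes, 1 above 0 and 3 below (median -0.18). Abcc1, an exporter of organic anions, had 1.71 ± 0.53 RPKM in butyrate and 2.52 ± 0.54 in vehicle (SD, n = 3 each; log2 fold change -0.38; limma adjusted p 0.667), and Abcc3 was at 0.15.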

How the data were processed

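The authors' deposited table held, per the file headers, H3K9ac regions with RPKM of each library, group averages in CPM and RPKM, and a log2 fold change, log2 CPM, p-value and FDR from the authors' own comparison. The submitters' processing notes name mm10, STAR, Picard, HOMER and edgeR (the authors' use), with no role. How regions were called and reads counted is not given in the sources used here. Columns named the group of each library and not its label number.

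Reads were recovered from RPKM and region length: 100% of values came out whole, within 0.01 reads. Because the values are RPKM, the test was limma 3.58.1 (R 4.3.3) on log2(RPKM + 1) with trend and robust variance, and a mean of at least 1 RPKM (722 regions left out), with Benjamini-Hochberg adjustment over all regions tested. The added 1 RPKM shrinks fold changes where signal is low. The fits were tested on simulated data. Regions named are all members and, per list, the smallest p in each direction. Members and lists were chosen with earlier results of these data known. Intervals are 95%. Reference annotation was RefSeq GRCm38.p6 and GENCODE M21; all 11251 regions lay within its chromosomes.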

Additional observations from a re-analysis of the deposited data

How the results depend on the processing

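Member regions past an adjusted p of 0.05 numbered 0 under each alternative: voom on recovered reads, no filter, a mean of at least 2 RPKM (4 members tested), pseudocounts of 0.5 and 0.1, scaling to the sum over regions, RLE-type factors, an adjusted p of 0.1, and leaving out each library. List regions past the test numbered 0 as well. Over all regions the count was 0 in these settings except voom, which called 16 of 11251. Leaving out 1 library moved the log2 fold change of Slc5a8 between 0.18 and 0.44, Slc5a12 between 0.09 and 0.29, the Abcg2 intron region between -0.17 and -0.10 and Bsg between -0.16 and -0.01. The sign turned in some of these at Slc16a1 (-0.16 to 0.015), the Abcg2 promoter region (-0.40 to 0.054), Acsm3 (-0.079 to 0.22) and Slc16a3 (-0.14 to 0.041); the cause was not tested. No other alternative turned a sign. Slc5a8 ran from 0.34 to 0.51 and Slc5a12 from 0.20 to 0.44 over them, highest with voom. No paired analysis was possible because the columns carry no replicate number of the labels. Reads, and with them the precision of counting, were fewest at the Abcg2 promoter region (14.3 on average) and Acsm3 (31.2).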

Other observations

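Bsg, the member region with the most reads, was compared with all other tested regions by the Pearson correlation of log2(RPKM + 1) over the 6 libraries. The highest values were 0.99 for an intron region of Sult1d1, a cytosolic sulfotransferase (chromosome 5, 87567384 to 87569023), 0.99 for an intron region named for Gas2l3 (chromosome 10, 89442671 to 89443171) and 0.98 for an intron region of Bcorl1, a corepressor (chromosome X, 48344976 to 48345790). Sult1d1 had 1.22 ± 0.039 RPKM in butyrate and 1.45 ± 0.32 in vehicle (SD, n = 3 each). The Gas2l3 region had 1.12 ± 0.12 in butyrate and 1.58 ± 0.87 in vehicle, and Bcorl1 2.56 ± 0.10 in butyrate and 2.85 ± 0.53 in vehicle. Bsg itself had 4.66 RPKM in vehicle library S2 and 3.56 to 3.73 in the other libraries. The correlations with it therefore rest largely on S2. These are the highest correlations among all tested regions, over 6 libraries that share their scaling, and they are given as a description.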
